A study of Mus musculus with 6 samples.

Results

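Polycomb and histone methylation enzymes were examined in the intestinal crypts of WT and Mtg16-/- mice. The group was a list of 54 gene symbols for Polycomb subunits, histone methyltransferases with their cofactors, and histone demethylases, and all 54 were among the 24736 symbols of the deposited table and the 12268 genes tested. They were divided by function into 13 classes. Mtg16, also called Cbfa2t3, encodes a transcription co-repressor. Crypts, the epithelial pits that hold the stem cells and Paneth cells, were taken along the whole gut with cold EDTA from 12-week-old males, 3 WT and 3 Mtg16-/-, with 1 library of ribosome-depleted total RNA per mouse. The labels call the knockout CRISPR-induced, whereas the methods of the study describe Mtg16-/- mice obtained as a gift, so the allele is uncertain; no transgene, Cre or treatment is named in either group.

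Histone methylation is written and erased by enzymes that work in complexes. PRC2 methylates lysine 27 of histone H3 through EZH1 or EZH2, PRC1 ubiquitylates histone H2A through RING1 or RNF2, and both are known for keeping developmental genes silent, while the KMT2 and SETD1 enzymes methylate lysine 4 at active promoters and enhancers. In the gut, PRC2 is known to sustain crypt proliferation, and Bmi1 has been used as a marker of cells low in the crypt.

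Values are TPM, relative transcript abundances that are scaled for transcript length and to the same total in every library, so the read depth is unknown. Fold changes are Mtg16-/- against WT on the log2(TPM + 1) scale, tested with limma in the 12268 genes that averaged 1 TPM or more, and a gene was called at a Benjamini-Hochberg adjusted p under 0.1. Cbfa2t3 itself had a TPM of 3.67, 6.69 and 4.52 in WT and of 4.62, 6.43 and 3.23 in the Mtg16-/- libraries. Its level did not separate the genotypes, and the groups are those of the labels. WT replicate 1 and Mtg16-/- replicate 3 stood at opposite ends of the first principal component, which held 47.7% of the variance. Mtg16-/- replicate 3 was also low in long transcripts: among the 599 tested genes with a longest annotated transcript of 8000 bases or more it had the lowest value of the 6 libraries in 65.3%, against 31.4% of the genes of any length. In those 599 genes its median deviation from the mean of the 6 libraries was -0.30 on the log2(TPM + 1) scale. Other libraries lay the other way, with 0.17 in Mtg16-/- replicate 2, the highest, and 0.10 in WT replicate 1.

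Many markers of cell types differed in mean between the groups, none of them called. The summed TPM of a list was separate between the groups only for the Paneth cell, enteroendocrine, stem cell, and myeloid and mast cell markers. All 12 enterocyte markers were lower in Mtg16-/- (summed TPM 13823 to 38896 in WT and 7243 to 14049 in Mtg16-/-), as were all 7 tested T cell markers (132 to 449 and 70.3 to 212), whereas all 7 Paneth cell markers (9024 to 19658 and 24076 to 29548), all 8 enteroendocrine markers (198 to 246 and 353 to 387) and all 7 stem cell markers (796 to 1376 and 1485 to 1934) were higher. Of 14 proliferation genes, 11 were higher (963 to 1362 and 1152 to 1469). Among the WT libraries, replicate 1 had the highest enterocyte and T cell sums and the lowest Paneth cell, stem cell and proliferation sums. The proliferation sums of WT replicates 2 and 3, 1362 and 1338, lay within the Mtg16-/- range. Goblet cell markers were lower in 5 of 7 (7264 to 11803 and 6454 to 9087), tuft cell markers in 4 of 4 tested (33.5 to 67.3 and 27.05 to 34.5), myeloid and mast cell markers in 5 of 6 (34.3 to 53.0 and 25.3 to 30.2), and B and plasma cell markers in 4 of 5 (18.7 to 51.7 and 30.1 to 76.6). The exception in the last list was Jchain of plasma cells, at 7.56, 14.8 and 5.84 TPM in WT and 35.5, 17.5 and 16.5 TPM in Mtg16-/-, the one B and plasma cell marker with separate groups (log2 fold change 1.23, limma adjusted p = 0.267). In the myeloid and mast cell list only the mast cell proteases Mcpt1 and Mcpt2 had separate groups. Mcpt1 was at 12.95, 15.19 and 8.64 TPM in WT and at 0.96, 0.65 and 2.77 TPM in Mtg16-/-. Mcpt2 was at 6.65, 5.99 and 4.02 TPM in WT and at 0.34, 0.92 and 2.75 TPM in Mtg16-/-. Csf1r, Cd68 and Lyz2 were lower with overlapping groups, and Itgam was higher. The 10 stromal markers summed to 12.5 to 17.8 and 13.8 to 21.0, most of it Vim, and the erythroid markers to 11.04 to 27.3 and 12.2 to 33.2. Cdh5 of the stromal list was at 0 in all 3 Mtg16-/- libraries, and Hbb-bs of the erythroid list in 5 of the 6. The part of these shifts in the values below was not tested, and in bulk libraries fewer cells of a type and less RNA per cell cannot be told apart.

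No member was called: 0 of 54, beside 4 of the 12268 genes (0.0326%), which were 2 higher and 2 lower (0.0163% each). At an unadjusted p under 0.05, limma gave 7 of the 54, 13.0% of the members and 14.6% of all genes. Of these, Ezh2, Rbbp7, Bmi1 and Cbx7 were higher in Mtg16-/- and Men1, Dot1l and Kdm6b were lower (6.53% of all genes were higher and 8.05% lower at that limit). The groups did not overlap in 10 members, 18.5%, a share that was 21.0% over all genes (9.94% higher and 11.1% lower). Those 10 were the 7 named, with Kdm1a on the higher side and Pcgf3 and Kmt2b on the lower side. The log2 fold change was above 0 in 25 members and below 0 in 29, with a median of -0.01, while it was above 0 in 46.4% of all genes, whose median was -0.03. The split turned to 31 higher and 23 lower after quantile normalization, to 32 and 22 after rescaling without the 100 most abundant genes, and to 37 and 17 after a correction for transcript length and GC content. As shares above 0, these were 57.4%, 59.3% and 68.5% of the members, from 46.3% in the main fit. Over all genes the share above 0 moved in the same direction but by less, to 53.4%, 54.5% and 53.7%. Leaving out 1 library gave 34 higher and 20 lower without Mtg16-/- replicate 3 (49.7% of all genes higher), 19 and 35 without WT replicate 1 (45.3%), and 18 and 36 without Mtg16-/- replicate 2 (42.1%). The 95% interval of the log2 fold change stayed between -1 and 1 in 51 of the 54, with standard errors from 0.11 to 0.27.

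**Figure D1:**
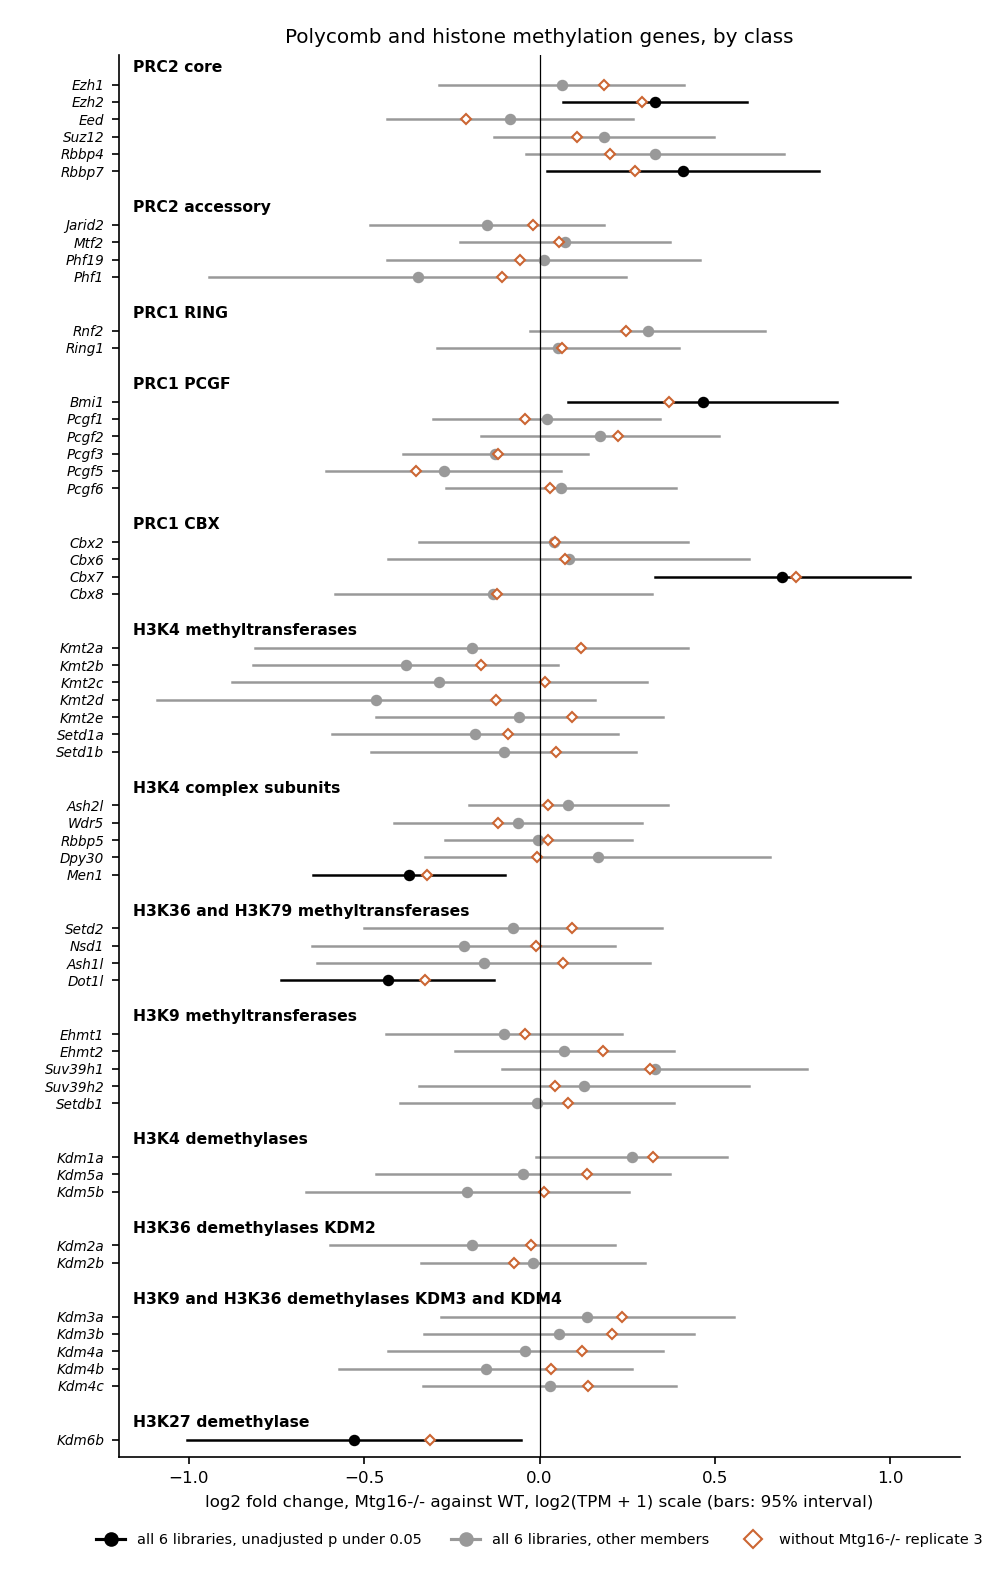
The horizontal axis gives the log2 fold change of each of the 54 members, Mtg16-/- against WT on the log2(TPM + 1) scale, in 13 classes from top to bottom. Filled circles with bars are the fit of 6 libraries with its 95% interval, black for the 7 members with an unadjusted p under 0.05, and open diamonds are the fit without Mtg16-/- replicate 3. In the H3K4 methyltransferases the circles all lie left of 0 and the diamonds lie on both sides of it.

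All members were expressed. Averaged over the libraries, 51 of the 54 reached 10 TPM, with a median of 29.1 TPM. Rbbp7, a histone-binding WD40 subunit of PRC2 and other complexes, had the highest level, 166 TPM, followed by Dpy30, a subunit of the H3K4 methyltransferase complexes, at 119.2 TPM. The lowest levels were those of Phf19, a PRC2 accessory subunit that binds methylated lysine 36, at 3.23 TPM, and of the H3K9 methyltransferase gene Suv39h2 at 3.85 TPM.

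In the PRC2 core, 5 of the 6 subunit genes had a higher mean in Mtg16-/- and the median log2 fold change was 0.26. The count was 5 of 6 also under each of 3 other scalings, after the length and GC correction, with any 1 library left out except WT replicate 2, when it was 4 of 6, and also without WT replicate 1 and Mtg16-/- replicate 3 together. Where 5 of 6 were higher, the lower gene was Ezh1 without Mtg16-/- replicate 1 and Eed under the other settings. The median lay between 0.19 and 0.33 with any 1 library left out and was 0.14 without both. Ezh2, which encodes the main catalytic subunit in dividing cells (chromosome 6, 47530274 to 47595270 in GRCm38), had a TPM of 36.7, 41.3 and 38.3 in WT and of 46.4, 48.8 and 51.6 in Mtg16-/-. Every Mtg16-/- library was above every WT library. The mean TPM was 38.8 ± 2.32 in WT and 48.9 ± 2.62 in Mtg16-/- (SD, n = 3 each), and the log2 fold change was 0.33 (95% interval 0.07 to 0.59, limma adjusted p = 0.287). The log2 fold change lay between 0.25 and 0.40 under 18 alternatives, with an unadjusted p under 0.05 in 15 of them. The RefSeq promoter of Ezh2 is shown because this gene had the lowest p of its class. It lies at chr6:47594981-47595280 on the minus strand of GRCm38.p6, from 250 bases before the start of 1 RefSeq transcript to 50 bases after it, and is written in the direction of transcription. That start, at 47595030, is 240 bases inside the gene interval given above, which covers all annotated transcripts. Capitals mark matches, on either strand, to CCAAT or ATTGG and to TTTGGCGC or GCGCCAAA.
Ezh2: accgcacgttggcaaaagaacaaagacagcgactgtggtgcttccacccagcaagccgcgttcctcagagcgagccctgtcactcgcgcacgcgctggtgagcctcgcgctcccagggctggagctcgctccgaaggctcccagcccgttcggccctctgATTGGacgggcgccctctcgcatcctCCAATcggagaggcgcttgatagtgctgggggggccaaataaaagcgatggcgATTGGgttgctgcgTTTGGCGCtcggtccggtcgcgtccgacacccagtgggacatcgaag
It held 3 matches to CCAAT, a motif found in 37.4% of the 32851 RefSeq promoters of this length, and 1 to TTTGGCGC, a form of the E2F motif found in 0.514%. No match to TTTCCCGC, another E2F form, or to the E boxes CAGCTG and CATCTG was in this window, and none of these motifs overlapped another. Of the 54 members, 41 had a promoter in the RefSeq table, where 16 held CCAAT, 10 held CAGCTG, 4 held CATCTG, 2 held TTTCCCGC and 1 held TTTGGCGC, and their median was 27 CpG dinucleotides against 7 in all promoters.

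Rbbp7 (chromosome X, 162760372 to 162779090) had a TPM of 121, 156 and 149 in WT and of 160, 181 and 227 in Mtg16-/-. The groups did not overlap, with Mtg16-/- replicate 3 far above the rest. Its log2 fold change was 0.41 (95% interval 0.02 to 0.80, limma adjusted p = 0.323), and 0.27 without Mtg16-/- replicate 3 or 0.30 without WT replicate 1, each with an unadjusted p above 0.05. Rbbp4, its close paralog, had a TPM of 52.4, 64.1 and 66.5 in WT and of 66.2, 74.0 and 91.4 in Mtg16-/-. Mtg16-/- replicate 1 lay just under WT replicate 3, and the log2 fold change was 0.33 (limma adjusted p = 0.379). The quantification may have divided reads shared by these paralogs between them. Suz12, the scaffold subunit, had a log2 fold change of 0.18, from 45.1 to 51.7 TPM. Eed, which binds trimethylated lysine 27 and stimulates the enzyme, was the one core subunit with a lower mean, 42.2 in WT and 40.2 TPM in Mtg16-/-, a log2 fold change of -0.09.

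Ezh1, the paralog of Ezh2 more typical of resting cells, had a TPM of 23.0, 19.0 and 21.0 in WT and of 24.6, 23.3 and 18.3 in Mtg16-/-, a log2 fold change of 0.06. The level of Ezh2 relative to Ezh1 was 1.597, 2.17 and 1.82 in WT and 1.89, 2.10 and 2.81 in Mtg16-/-. Only Mtg16-/- replicate 3, the library low in long transcripts, was outside the WT range, and the difference did not pass the test (exact permutation test of the log2 ratio, two-sided, p = 0.3, adjusted p = 0.413 over 11 pairs of paralogs). The accessory subunits that recruit PRC2 were divided. Phf1 was at 24.9, 15.0 and 18.3 TPM in WT and at 19.6, 15.7 and 10.3 TPM in Mtg16-/-, a log2 fold change of -0.35 that was -0.11 without Mtg16-/- replicate 3. Jarid2 had a TPM of 35.6, 31.8 and 34.9 in WT and of 34.1, 33.1 and 25.4 in Mtg16-/-, a log2 fold change of -0.15, and it was the most abundant of the 4. Mtf2 and Phf19 had log2 fold changes of 0.07 and 0.01. In Jarid2 and Phf1 the lowest of the 6 values was that of Mtg16-/- replicate 3.

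**Figure D2:**
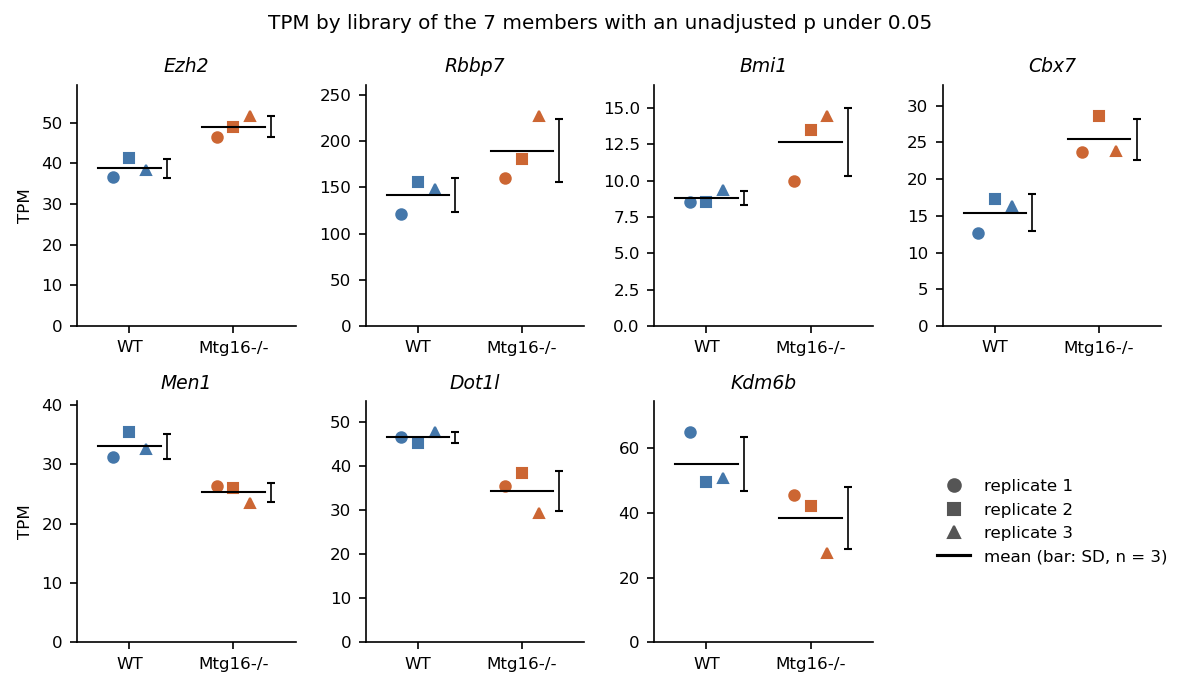
Each panel plots the TPM of 1 member in the 3 WT (blue) and 3 Mtg16-/- (orange) libraries on a linear axis from 0, with marker shapes for the replicate, a line for the mean and a bar for the SD (n = 3). In all 7 panels the groups are separate, in Rbbp7 by little (156 against 160 TPM).

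Among the PRC1 genes, Cbx7 had the lowest p of all 54 members. CBX7 is the chromodomain subunit that reads trimethylated lysine 27 in canonical PRC1 (chromosome 15, 79915804 to 79971143). Its TPM was 12.6, 17.3 and 16.4 in WT and 23.8, 28.6 and 23.9 in Mtg16-/-, so the lowest Mtg16-/- value was well above the highest WT value. The mean was 15.4 ± 2.48 TPM in WT and 25.4 ± 2.76 TPM in Mtg16-/- (SD, n = 3 each), a log2 fold change of 0.69 (95% interval 0.33 to 1.06, limma adjusted p = 0.225). The log2 fold change lay between 0.56 and 0.87 under 18 alternatives and kept an unadjusted p under 0.05 in all 18. Its promoter is shown for that reason. It lies at chr15:79932597-79932896 on the minus strand of GRCm38.p6, and capitals mark CAGCTG and CCAAT on either strand. The transcript start it surrounds, at 79932646, is an internal one, 38497 bases inside the gene interval, and the outermost start was not searched.
Cbx7: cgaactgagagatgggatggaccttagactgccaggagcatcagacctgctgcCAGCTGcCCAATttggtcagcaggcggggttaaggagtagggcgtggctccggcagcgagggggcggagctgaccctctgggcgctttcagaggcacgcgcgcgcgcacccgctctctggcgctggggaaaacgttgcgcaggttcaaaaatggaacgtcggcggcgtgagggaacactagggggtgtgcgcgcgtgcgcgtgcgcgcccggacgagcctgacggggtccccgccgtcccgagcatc
The window held 1 match to CAGCTG, an E box found in 16.3% of promoters, and 1 to CCAAT.

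The other CBX genes did not share this difference. Cbx8 had a TPM of 11.8, 7.62 and 10.7 in WT and of 10.6, 7.69 and 8.80 in Mtg16-/-, a log2 fold change of -0.13, and Cbx2 and Cbx6 had log2 fold changes of 0.04 and 0.08. As a share of the TPM summed over the 4 genes, Cbx7 accounted for 33.9% ± 3.39 in WT and 46.1% ± 1.96 in Mtg16-/- (SD, n = 3 each). The class median of 0.06 turned to -0.05 without WT replicate 1.

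Bmi1, a PCGF subunit that pairs with the RING enzymes (chromosome 2, 18677018 to 18686629), had a TPM of 8.53, 8.49 and 9.36 in WT and of 10, 13.5 and 14.4 in Mtg16-/-. The WT libraries were close together, and Mtg16-/- replicate 1 was only slightly above them. The log2 fold change was 0.47 (95% interval 0.08 to 0.85, limma adjusted p = 0.297). It was 0.37 without Mtg16-/- replicate 3, with an unadjusted p above 0.05. Pcgf5, a subunit of variant PRC1, leaned the other way with 20.3, 16.8 and 21.2 TPM in WT and 14.7, 15.1 and 17.8 TPM in Mtg16-/-, a log2 fold change of -0.27 with overlapping groups. Pcgf3 was slightly lower in Mtg16-/- without overlap, from 35.3 to 32.2 TPM, a log2 fold change of -0.13 that is about the size of its standard error of 0.11. Pcgf2 had a log2 fold change of 0.17, Pcgf6 of 0.06 and Pcgf1 of 0.02. Bmi1 had the lowest level of the 6 PCGF genes in WT, 8.08% of their summed TPM, and 11.5% in Mtg16-/-.

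The RING enzymes carry the catalytic activity of PRC1. Rnf2 had a TPM of 10.3, 9.89 and 11.9 in WT and of 11.9, 13.9 and 14.8 in Mtg16-/-, a log2 fold change of 0.31 (limma adjusted p = 0.371), with Mtg16-/- replicate 1 level with WT replicate 3. Ring1 had a TPM of 16.3, 18.4 and 19.4 in WT and of 16.2, 21.8 and 18.4 in Mtg16-/-, a log2 fold change of 0.05. The Rnf2 to Ring1 ratio was 0.633, 0.539 and 0.614 in WT and 0.733, 0.635 and 0.802 in Mtg16-/- (exact permutation test, two-sided, p = 0.2, adjusted p = 0.413 over 11 pairs). WT replicate 1 and Mtg16-/- replicate 2 had almost the same ratio.

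All 7 genes of the H3K4 methyltransferase class, which includes Kmt2e, had a lower mean in Mtg16-/-, with a median log2 fold change of -0.19. After quantile normalization or after rescaling without the 100 most abundant genes, 6 of 7 did so. That direction rested on 1 library: without Mtg16-/- replicate 3, 4 of the 7 were higher and 3 lower, with a median of 0.01. After the length and GC correction the count was also 4 higher and 3 lower, with a median of 0.00. Kmt2d, which methylates lysine 4 at enhancers and has the longest transcript of the list (19823 bases), had a TPM of 60.7, 56.2 and 61.4 in WT and of 49.8, 59.5 and 26.2 in Mtg16-/-. Mtg16-/- replicate 3 was far below every other library. Its log2 fold change of -0.47 (limma adjusted p = 0.440) was -0.12 without that library. Kmt2c, its partner paralog, was at 32.9, 25.5 and 28.2 TPM in WT and at 26.4, 31.9 and 15.1 TPM in Mtg16-/-, a log2 fold change of -0.29 that was 0.01 without Mtg16-/- replicate 3.

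Kmt2b was the one gene of this class whose groups did not overlap. It had a TPM of 35.2, 33.8 and 36.02 in WT and of 30.1, 32.0 and 19.5 in Mtg16-/-, a log2 fold change of -0.38 (95% interval -0.82 to 0.05, limma adjusted p = 0.386). Without Mtg16-/- replicate 3 it was -0.17. Kmt2a, which encodes MLL1, had a TPM of 20.7, 18.0 and 21.5 in WT and of 18.8, 25.3 and 10.9 in Mtg16-/-, so the Mtg16-/- libraries held both the highest and the lowest value. The main enzymes of promoter lysine 4 trimethylation were likewise lowest in Mtg16-/- replicate 3. Setd1a was at 25.2, 33.3 and 36.5 TPM in WT and at 26.7, 32.3 and 24.0 TPM in Mtg16-/-. Setd1b was at 30.8, 32.4 and 36.7 TPM in WT and at 31.9, 36.9 and 24.9 TPM in Mtg16-/-. Their log2 fold changes were -0.18 and -0.10, and that of Kmt2e, a family member without known methyltransferase activity, was -0.06. In all 7 genes Mtg16-/- replicate 3 had the lowest value.

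The pattern followed transcript length across the members. Of the 54, 12 had a longest transcript of 8000 bases or more: Kmt2a, Kmt2b, Kmt2c, Kmt2d, Setd1b, Nsd1, Ash1l, Setd2, Kdm5a, Kdm5b, Kdm2a and Jarid2. All 12 had a lower mean in Mtg16-/- (median log2 fold change -0.19), and in all 12 Mtg16-/- replicate 3 had the lowest value. Over the 599 tested genes of that length, 37.2% had a log2 fold change above 0 and the median was -0.09, which was 0.04 without Mtg16-/- replicate 3. Mtg16-/- replicate 2, which stays in that fit, had the highest median deviation of the libraries at this length. In the 22 members of 4000 to 8000 bases, 11 were lower and Mtg16-/- replicate 3 was lowest in 12, and in the 18 of 2000 to 4000 bases the numbers were 6 and 3.

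**Figure D3:**
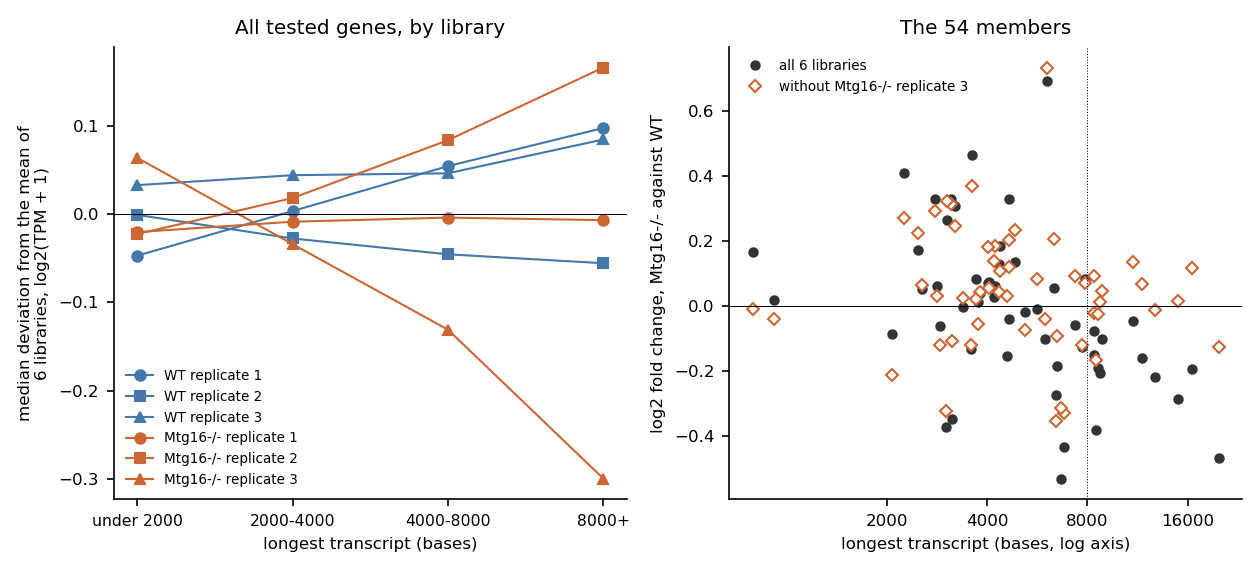
On the left, lines give for each of the 6 libraries the median deviation of all tested genes from their mean over the libraries, in log2(TPM + 1), for 4 bins of longest transcript length in bases, with WT in blue and Mtg16-/- in orange. Mtg16-/- replicate 3 runs from 0.06 in the shortest bin to -0.30 in the longest. On the right, the log2 fold change of the 54 members is plotted against longest transcript length on a log axis, with filled circles for 6 libraries and open diamonds without Mtg16-/- replicate 3, and right of the dotted line at 8000 bases every circle is below 0.

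The shared subunits of the H3K4 complexes showed no common direction, with 2 of 5 higher and a median log2 fold change of -0.0033. The count was 3 of 5 after median-of-ratios rescaling, 4 of 5 after quantile normalization, rescaling without the 100 most abundant genes or the length and GC correction, and 1 of 5 with a median of -0.17 without WT replicate 1 and Mtg16-/- replicate 3. Men1, which encodes menin, the subunit that tethers MLL1 and MLL2 complexes to chromatin (chromosome 19, 6334979 to 6340894), was the exception. It had a TPM of 31.2, 35.4 and 32.5 in WT and of 26.3, 26.1 and 23.5 in Mtg16-/-, each Mtg16-/- value being below each WT value. The means were 33.0 ± 2.15 and 25.3 ± 1.55 TPM (SD, n = 3 each), with a log2 fold change of -0.37 (95% interval -0.65 to -0.10, limma adjusted p = 0.279) that was -0.32 without Mtg16-/- replicate 3 and -0.23 after the length and GC correction. Its longest transcript has 3002 bases. Dpy30 had a TPM of 88.3, 120 and 127 in WT and of 96.1, 126 and 158 in Mtg16-/-, a log2 fold change of 0.17 that was -0.01 without Mtg16-/- replicate 3. Its transcript, 789 bases, is the shortest of the list. Ash2l, Wdr5 and Rbbp5, which form the core of these complexes, had log2 fold changes of 0.08, -0.06 and -0.0033.

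Dot1l, the only H3K79 methyltransferase known in mammals (chromosome 10, 80755101 to 80795461), had the lowest p of the members with a lower mean. Its TPM was 46.7, 45.3 and 47.7 in WT and 35.4, 38.4 and 29.4 in Mtg16-/-, with a narrow WT range that no Mtg16-/- library reached. The means were 46.6 ± 1.19 and 34.4 ± 4.59 TPM (SD, n = 3 each), a log2 fold change of -0.43 (95% interval -0.74 to -0.13, limma adjusted p = 0.269). It lay between -0.51 and -0.24 under 18 alternatives, with an unadjusted p under 0.05 in all 18, and was -0.33 without Mtg16-/- replicate 3. The promoter of Dot1l, at chr10:80754953-80755252 on the plus strand of GRCm38.p6, is shown beside those of Ezh2 and Cbx7 because Dot1l had a log2 fold change of the opposite sign. Its transcript start lies 102 bases inside the gene interval.
Dot1l: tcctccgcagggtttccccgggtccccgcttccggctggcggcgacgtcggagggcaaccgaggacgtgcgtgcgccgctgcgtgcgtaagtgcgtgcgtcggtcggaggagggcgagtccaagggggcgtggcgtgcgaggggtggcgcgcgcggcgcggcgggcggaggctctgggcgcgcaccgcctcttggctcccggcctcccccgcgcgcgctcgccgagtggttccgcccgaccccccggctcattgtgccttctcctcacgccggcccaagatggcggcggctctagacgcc
None of the motifs searched was in this window, which held 49 CpG dinucleotides, against 31 in the window of Ezh2 and 33 in that of Cbx7.

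The H3K36 methyltransferases resembled the long KMT2 genes when Mtg16-/- replicate 3 was left out. Nsd1 had a TPM of 74.2, 63.7 and 68.8 in WT and of 64.5, 72.2 and 44.1 in Mtg16-/-, and its log2 fold change of -0.22 was -0.01 without Mtg16-/- replicate 3. For Setd2, which trimethylates lysine 36 in transcribed genes, the value went from -0.08 to 0.09 without that library, and for Ash1l from -0.16 to 0.07. With Dot1l, the class had 4 of 4 genes lower and a median of -0.19 on 6 libraries, and 2 of 4 lower with a median of 0.03 without Mtg16-/- replicate 3. After the length and GC correction 4 of 4 were still lower, with a median of -0.07, as were 4 of 4 under each of the 3 rescalings.

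The H3K9 methyltransferases, enzymes of heterochromatin and gene silencing, had 3 of 5 genes higher, a median log2 fold change of 0.07 and no member with an unadjusted p under 0.05. The count was 4 of 5 under the 3 other scalings and 5 of 5 after the length and GC correction (1 of them, Ehmt2, with an unadjusted p under 0.05), but 2 of 5 without WT replicate 1 (median -0.01) and 2 of 5 without Mtg16-/- replicate 2 (median -0.02). Suv39h1 was at 20.8, 28.9 and 35.0 TPM in WT and at 32.3, 36.9 and 35.6 TPM in Mtg16-/-. WT replicate 1 was the lowest library, and the log2 fold change of 0.33 (limma adjusted p = 0.438) was 0.13 without it. Suv39h2, its paralog, had a TPM of 2.78, 3.75 and 4.41 in WT and of 3.38, 4.13 and 4.64 in Mtg16-/-, and Suv39h1 was 7.70 times as abundant in WT. Ehmt1 had a TPM of 31.9, 37.5 and 39.4 in WT and of 31.4, 39.3 and 30.8 in Mtg16-/-. Ehmt2, which forms a heterodimer with EHMT1, had a TPM of 67.4, 73.2 and 74.8 in WT and of 78.1, 85.0 and 64.5 in Mtg16-/-. The log2 fold changes of Ehmt1, Ehmt2 and Setdb1 were -0.10, 0.07 and -0.01.

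Among the demethylases, Kdm1a (LSD1), which removes mono- and dimethylation of lysine 4 in co-repressor complexes, was higher in each Mtg16-/- library than in any WT library. Its TPM was 32.5, 33.8 and 36.2 in WT and 42.1, 43.9 and 37.8 in Mtg16-/-, a log2 fold change of 0.26 (95% interval -0.01 to 0.54, limma adjusted p = 0.354). It was 0.32 without Mtg16-/- replicate 3 and 0.36 after the length and GC correction, both with an unadjusted p under 0.05. With any other single library left out the unadjusted p was above 0.05. The value was then 0.23 without WT replicate 1 and 0.22 without Mtg16-/- replicate 2. The lysine 4 demethylases of the KDM5 family did not share the higher level of Kdm1a. Kdm5a was at 18.4, 16.2 and 16.8 TPM in WT and at 17.5, 20.3 and 12.6 TPM in Mtg16-/-. Kdm5b was at 25.0, 20.7 and 23.4 TPM in WT and at 22.3, 24.0 and 14.3 TPM in Mtg16-/-. Their log2 fold changes, -0.05 and -0.21, were 0.13 and 0.01 without Mtg16-/- replicate 3.

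Kdm6b (JMJD3), which removes methyl groups from lysine 27 and so opposes PRC2, had the largest negative log2 fold change of the 54 (chromosome 11, 69398508 to 69420367). Its TPM was 64.7, 49.6 and 50.7 in WT and 45.5, 42.2 and 27.5 in Mtg16-/-. The groups did not overlap, and the extremes were WT replicate 1 and Mtg16-/- replicate 3, the libraries that stood apart. The log2 fold change was -0.53 (95% interval -1.01 to -0.05, limma adjusted p = 0.312). It was -0.31 without Mtg16-/- replicate 3, -0.41 without WT replicate 1 and -0.19 without both, each with an unadjusted p above 0.05. After the length and GC correction it was -0.34.

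The remaining demethylases were close between the groups. Kdm2a, a demethylase of lysine 36, had a TPM of 60.0, 46.0 and 51.7 in WT and of 52.1, 50.7 and 36 in Mtg16-/-, a log2 fold change of -0.19 that was -0.02 without Mtg16-/- replicate 3. Kdm2b, its paralog and a recruiter of variant PRC1 to CpG islands, had a TPM of 19.7, 25.0 and 23.6 in WT and of 20.6, 22.5 and 24.1 in Mtg16-/-, a log2 fold change of -0.02. In both genes the groups overlapped widely. In the KDM3 and KDM4 class, 3 of 5 genes were higher, with a median of 0.03, and 5 of 5 without Mtg16-/- replicate 3, with a median of 0.14. The count was 2 of 5 without WT replicate 1 (median -0.01), WT replicate 2 (-0.02) or Mtg16-/- replicate 1 (-0.03). It was 1 of 5 without Mtg16-/- replicate 2 (-0.06). Kdm3a was at 27.3, 18.2 and 24.0 TPM in WT and at 25.0, 29.3 and 21.8 TPM in Mtg16-/-. Kdm3b was at 30.1, 32.6 and 37.5 TPM in WT and at 36.4, 40.8 and 27.9 TPM in Mtg16-/-. Kdm4b had a TPM of 13.4, 13.0 and 12.9 in WT and of 12.7, 14.1 and 8.80 in Mtg16-/-. The log2 fold changes of Kdm3a, Kdm3b, Kdm4a, Kdm4b and Kdm4c were 0.14, 0.06, -0.04, -0.15 and 0.03.

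**Figure D4:**
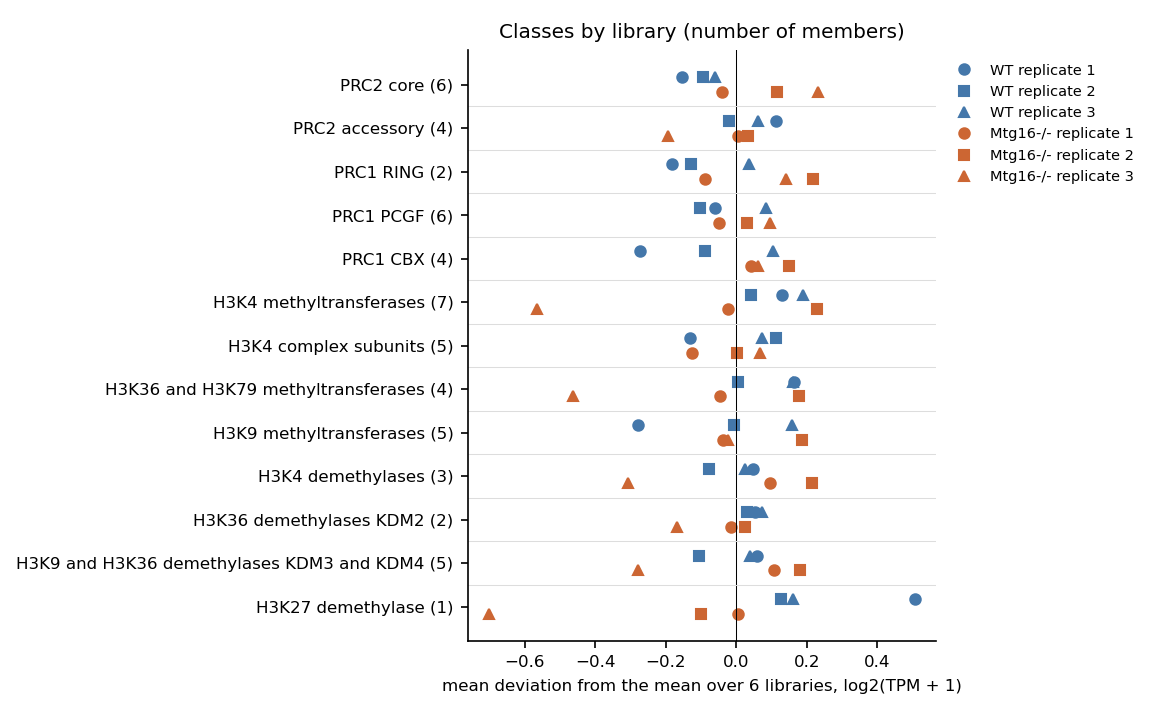
For each of the 13 classes, points give the mean deviation of its members in each library from their means over the 6 libraries, in log2(TPM + 1), with WT in blue above and Mtg16-/- in orange below and marker shapes for the replicate. In the PRC2 core the Mtg16-/- points lie at -0.04, 0.12 and 0.23, all right of the WT points (-0.16 to -0.06), whereas in the H3K4 methyltransferases Mtg16-/- replicate 3 (-0.57) stands far below the other 5 libraries.

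Ratios between paralogs, which compare genes within a library, were computed for 11 pairs. In none were the groups fully separate, and the smallest p was 0.2 (exact permutation test, two-sided; the smallest that 3 mice against 3 allow is 0.1), with adjusted p between 0.413 and 0.80 over the 11. The ratio of Kdm5a to Kdm5b was 0.746 ± 0.0354 in WT and 0.837 ± 0.0482 in Mtg16-/- (SD, n = 3 each), a difference in the log2 ratio of 0.16. Suv39h1 to Suv39h2 differed by 0.20, Kmt2a to Kmt2b by 0.19, Kmt2c to Kmt2d by 0.18, Kdm3a to Kdm3b by 0.08, Rbbp4 to Rbbp7 by -0.08, Setd1a to Setd1b by -0.08, and Ehmt1 to Ehmt2 and Kdm2a to Kdm2b by -0.17 each. In Rbbp4 and Rbbp7 the ratio was nearly the same in all libraries, 0.431 ± 0.0182 in WT and 0.408 ± 0.00505 in Mtg16-/- (SD, n = 3 each).

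Of 59 further Polycomb and histone methylation genes listed for comparison, 56 were tested and none was called by limma. At an unadjusted p under 0.05 there were 2 (3.57%, beside 14.6% of all genes), 1 higher and 1 lower. In all, 19 had a log2 fold change above 0 and 37 below, a share above 0 that was 46.4% over all genes, and the median was -0.05. The groups did not overlap in 1 higher and 5 lower genes of the 56, beside 21.0% of all genes. Setd7, which monomethylates lysine 4 and non-histone proteins, had a TPM of 15.5, 14.2 and 17.2 in WT and of 21.0, 23.5 and 17.0 in Mtg16-/-, a log2 fold change of 0.36 (limma adjusted p = 0.340). Its groups overlapped by 1 library on each side. Kmt5c, a lysine 20 methyltransferase of histone H4, had a TPM of 57.5, 50.4 and 54.3 in WT and of 47.6, 45.8 and 36.4 in Mtg16-/-, a log2 fold change of -0.32 (limma adjusted p = 0.340) without overlap. Epop, a PRC2 accessory subunit, was at 1.32, 2.38 and 2.40 TPM in WT and at 0.95, 1.19 and 1.09 TPM in Mtg16-/-, a log2 fold change of -0.53 (limma adjusted p = 0.351). Kdm5c, a lysine 4 demethylase, was at 35.7, 30.25 and 35.45 TPM in WT and at 30.23, 29.96 and 21.25 TPM in Mtg16-/-, a log2 fold change of -0.32 (limma adjusted p = 0.405) with groups that barely separated. The other genes with separate groups were Smyd3, Pagr1a and Nsd3, with log2 fold changes of 0.35, -0.12 and -0.22, and Nsd3 is named only for that, after its values were seen. None of the 15 further PRC1 subunits had groups that were separate.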

How the data were processed

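RNA was profiled in crypts of 3 WT and 3 Mtg16-/- mice, with libraries made by KAPA RNA HyperPrep with RiboErase. The authors deposited TPM values per gene symbol, rounded to 2 decimals. The submitters' processing notes name cutadapt 1.9.1, STAR 2.5.2a, RSEM 1.3.0, DESeq2 1.12.3 and the mm10 build, without their roles, and the annotation is not given in the sources used here. TPM keeps no read number, so depth and counting error are unknown and no count test was run. Here log2(TPM + 1) was tested with limma 3.58.1 (R 4.3.3, lmFit and eBayes with an intensity trend, no covariates) for the 12268 genes averaging 1 TPM or more, with Benjamini-Hochberg adjustment over all of them. A limit of 0.1 was used because the study's own list of genes stays under it. An exact permutation test (two-sided, SciPy 1.17.1) was used for paralog ratios. Positions and promoters are from RefSeq GRCm38.p6, and transcript lengths are those of the longest transcript in GENCODE vM21.

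Every member is named. Values by library are given for members with an unadjusted p under 0.05, the 2 smallest p of each class and the members of paralog ratios, and the other genes of the pathway are named where p was under 0.05 or among the smallest in their list. The members, lists and marker genes were chosen with earlier results of these data known. In simulated data with 12268 genes, 74 of 100 genes changed by 1 on the log2 scale and 97 of 100 changed by 2 were recovered, with 20 false calls. The simulated noise was independent between genes and the highest spreads were capped. It lacked the shifts that many genes share within a library, so recovery in the real libraries may be lower. The alternatives were another pseudocount, other filters, 3 rescalings, no trend, robust moderation, array weights, a replicate block, a correction for transcript length and GC content within each library, each mouse left out, and an adjusted p under 0.05. Leaving out 2 libraries together was added after the data were seen.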

Additional observations from a re-analysis of the deposited data

How the results depend on the processing

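No member was called under 16 of the 18 alternatives or at an adjusted p under 0.05. With array weights 3 of the 54 were called, beside 855 of the 12268 genes. With the replicate block it was 3 of the 54, beside 1201 of the 12268 genes. The number of genes called over the whole table, 4, was 0 with no filter on low values, 15 at a mean TPM of at least 5, 1 after median-of-ratios rescaling, 1 after quantile normalization, 0 after rescaling without the 100 most abundant genes, 0 without the intensity trend, 20 with robust moderation, 855 with array weights, 0 at an adjusted p under 0.05, and 0 to 40 with 1 mouse left out (40 without WT replicate 1, 0 without Mtg16-/- replicate 3). With 1 mouse left out, 5 to 8 members had an unadjusted p under 0.05. That was 9.26% to 14.8%, beside 8.39% to 16.6% of all genes. In those fits 12 to 15 members had groups without overlap (22.2% to 27.8%, beside 27.7% to 38.8% of all genes). The shares without overlap were 25.9% of members and 28.2% of all genes without Mtg16-/- replicate 3, and 22.2% and 31.5% without WT replicate 1. Without WT replicate 1 and Mtg16-/- replicate 3 together, 39 genes were called, 4 members had an unadjusted p under 0.05 (7.41%, beside 11.8% of all genes) and 20 did not overlap (37.0%, beside 44.8%). With the replicate number as a block, 1201 genes were called, and the 3 members were Cbx7 (limma adjusted p = 0.0340), Kdm6b (0.0817) and Rbbp7 (0.0927). The labels do not say that mice of the same number were handled together. Across genes, libraries of number 1, 2 and 3 deviated together with r = 0.429, 0.0753 and 0.237. Each Mtg16-/- library correlated best with the WT library of its own number. From the WT side this held for replicates 1 and 3, while WT replicate 2 correlated best with Mtg16-/- replicate 3 (0.198). These values do not settle whether the numbers pair the mice, and the main fit used no block. None of the 7 members with an unadjusted p under 0.05 turned its direction under any of the 18 alternatives. As their groups did not overlap, only the 3 rescalings and the length and GC correction could have turned a direction. The unadjusted p stayed under 0.05 in all 18 for Cbx7 and Dot1l, and in 16 for Men1 and 15 for Ezh2. It did so in 14 for Bmi1 and for Kdm6b and in 11 for Rbbp7. With 3 mice a group and no read counts, small differences of low genes were not detectable, and large ones of abundant genes also went uncalled. Among the enterocyte markers, Fabp1 had a log2 fold change of -1.99 at a mean of 1806 TPM (limma adjusted p = 0.225). Apoa4 had one of -1.85 at 1962 TPM (limma adjusted p = 0.247). A member that was not called may thus still differ, and the spread measured is that between these mice.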

Other observations

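Most classical targets of Polycomb silencing were barely expressed in both groups. Of 42 such genes, the Hox genes with the cell cycle inhibitors Cdkn2a, Cdkn2b and Cdkn1c, 10 had a mean TPM of at least 1 and were tested, 5 higher and 5 lower in Mtg16-/-, and none was called by limma. Cdkn2a, which Polycomb is known to keep off in dividing cells, was listed at 0.50, 0.00 and 0.00 TPM in WT and at 0.00, 0.24 and 0.21 TPM in Mtg16-/-. Cdkn2b was at 114, 86.6 and 73.0 TPM in WT and at 95.02, 60.4 and 62.3 TPM in Mtg16-/-, a log2 fold change of -0.33 with overlapping groups. Hoxb3 had a log2 fold change of 0.38, also with overlapping groups.

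Hoxb7, a homeobox gene of the middle of the HoxB cluster, was the only one of the 10 with an unadjusted p under 0.05. It had a TPM of 0.53, 2.35 and 0.43 in WT and of 3.07, 2.08 and 3.53 in Mtg16-/-, a log2 fold change of 0.98 (limma adjusted p = 0.298). WT replicate 2 lay within the Mtg16-/- range. The same library held the highest TPM of the 6 in Hoxb5 (9.11), Hoxb6 (14.4), Hoxb8 (3.18) and Hoxb9 (7.39), genes of the same cluster whose groups overlapped and which, like Cdkn2a and the genes at 0, were chosen after their values were seen. Hoxa13, Hoxb13, Hoxd11 and Hoxd12 were listed at 0 in all 6 libraries.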
